A study of Mus musculus with 9 samples.

Results

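The Kruppel-like factors (KLF) are zinc finger transcription factors, and 10 of their genes (Klf2, Klf3, Klf4, Klf5, Klf6, Klf10, Klf11, Klf12, Klf13 and Klf15) were followed here among 21950 mRNA genes measured in mouse renal cortex. The genes were taken by symbol, with the abundance of all transcripts of a gene added together, and all 10 had a mean of at least 0.1 FPKM (fragments per kilobase of transcript, scaled to the mapped fragments of the library), as did 14537 genes in all. Each library came from the renal cortex of 1 male mouse aged 15 weeks, with 3 mice a group. The Control mice were non-diabetic db/m littermates, which carry 1 copy of the db mutation of the leptin receptor gene, and whether they were gavaged with vehicle is not given in the sources used here. The dbdb mice were C57BL/KsJ db/db animals (BKS.Cg-Dock7m+/+Leprdb/Nju), homozygous for that mutation, type 2 diabetic and given vehicle. The dbR mice were of the same db/db genotype and were gavaged with rosiglitazone, a drug that activates the nuclear receptor PPARγ, at a daily 20 mg/kg over 8 weeks, having started at 7 weeks old. All 3 groups thus carry the db mutation, and no mouse without it was sequenced in the libraries used here.

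KLF proteins bind GC-rich and CACCC sequences in promoters and differ mainly in the cofactors that their N-terminal parts recruit. KLF2, KLF4, KLF5 and KLF6 can activate transcription, KLF3 and KLF12 bind the corepressor CtBP, and KLF10, KLF11 and KLF13 bind the corepressor SIN3A. In the kidney, KLF2 is known from the endothelium, KLF4, KLF6 and KLF15 from the podocyte, and KLF5 from the collecting duct epithelium, while KLF15 also drives amino acid breakdown and gluconeogenesis in fasted liver. KLF10 and KLF11 were first known as genes induced by transforming growth factor beta (TGF-β), and KLF13 as an activator of chemokine transcription in T lymphocytes. The study singled out Klf10, Klf11 and Klf13 on these libraries, so the direction of those genes is not independent evidence.

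The comparisons asked how the diabetic cortex differed from the Control cortex and whether rosiglitazone moved these genes. Between dbdb and Control, Klf13, Klf11 and Klf4 were higher in dbdb mice at an adjusted p under 0.05, and no member was lower. No member was called between dbR and dbdb by limma, the test used throughout. Between dbR and Control, Klf13 alone was called, again higher. The gene with the highest level, Klf15, was called in no comparison.

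The stretches of genome in front of the members called between dbdb and Control are shown here because the same kinds of GC-rich motif that KLF proteins recognise occur in them. They are read in the direction of transcription from RefSeq promoter windows of the mouse build GRCm38.p6, and only bases ahead of both the RefSeq and the GENCODE start of the gene are printed. Klf4 lies on chr4:55527143-55532466 (minus strand), Klf11 on chr12:24651274-24662789 (plus strand) and Klf13 on chr7:63886351-63938915 (minus strand). The printed stretches are chr4:55532476-55532725 (minus strand) for Klf4, chr12:24651121-24651273 (plus strand) for Klf11 and chr7:63938916-63939165 (minus strand) for Klf13. Capitals mark the CACCC box, the GC box read as GGGCGG, and the E-box read as CACGTG, each searched on either strand, and matches share bases in places.
Klf4: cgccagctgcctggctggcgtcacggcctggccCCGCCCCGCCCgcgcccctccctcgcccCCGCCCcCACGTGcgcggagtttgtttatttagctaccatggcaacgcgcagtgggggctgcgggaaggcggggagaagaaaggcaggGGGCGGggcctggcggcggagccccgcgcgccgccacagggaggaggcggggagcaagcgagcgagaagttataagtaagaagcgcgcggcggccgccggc
Klf11: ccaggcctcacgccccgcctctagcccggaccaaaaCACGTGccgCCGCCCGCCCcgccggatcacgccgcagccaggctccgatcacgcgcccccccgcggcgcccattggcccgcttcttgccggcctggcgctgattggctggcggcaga
Klf13: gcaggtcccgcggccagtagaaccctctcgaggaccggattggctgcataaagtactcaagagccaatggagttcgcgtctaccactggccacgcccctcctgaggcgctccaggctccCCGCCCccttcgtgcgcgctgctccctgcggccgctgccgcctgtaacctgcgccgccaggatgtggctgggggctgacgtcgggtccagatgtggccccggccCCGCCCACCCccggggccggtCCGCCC
A window of 300 bases (250 before the RefSeq start and 50 after it) was found for 8 members (Klf2, Klf3, Klf4, Klf6, Klf11, Klf12, Klf13 and Klf15). GGGCGG, the GC box, was present in 7 of these 8 windows and in 35.7% of all 32851 promoter windows. CACCC was present in 5 of 8 and in 57.5% of all windows. CACGTG, the E-box bound by clock and other basic helix-loop-helix factors, was present in 4 of 8 (Klf4, Klf6, Klf11 and Klf15) and in 7.15% of all. The members' windows held between 45.7% (Klf12) and 77.7% (Klf11) G and C, where the median of all windows was 52.7%. A match of letters is a description of the sequence and not a measured binding site.

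In the Control cortex the members spanned from 0.569 FPKM for Klf5 to 55.7 FPKM for Klf15, and FPKM, being per length, may be compared between genes. From the top, the Control means were 55.7 for Klf15, 16.6 for Klf3, 13.8 for Klf13, 13 for Klf6, 8.43 for Klf12, 8.04 for Klf2, 7.10 for Klf10, 2.48 for Klf11, 2.46 for Klf4 and 0.569 for Klf5. Within this order the Control libraries of Klf3, Klf13 and Klf6 overlapped from neighbour to neighbour, as did those of Klf12, Klf2 and Klf10 and those of Klf11 and Klf4. Klf15 stood above every other member in all 9 libraries and made up 35.6% to 47.3% of the FPKM summed over the members. In dbdb the order changed at Klf13, whose 3 libraries there (24.3 to 26.7 FPKM) lay above all 3 libraries of Klf3 (17.5 to 21.4 FPKM). The mean of Klf10 also stood above those of Klf2 and Klf12 in dbdb, with ranges that overlapped from neighbour to neighbour.

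**Figure D1:**
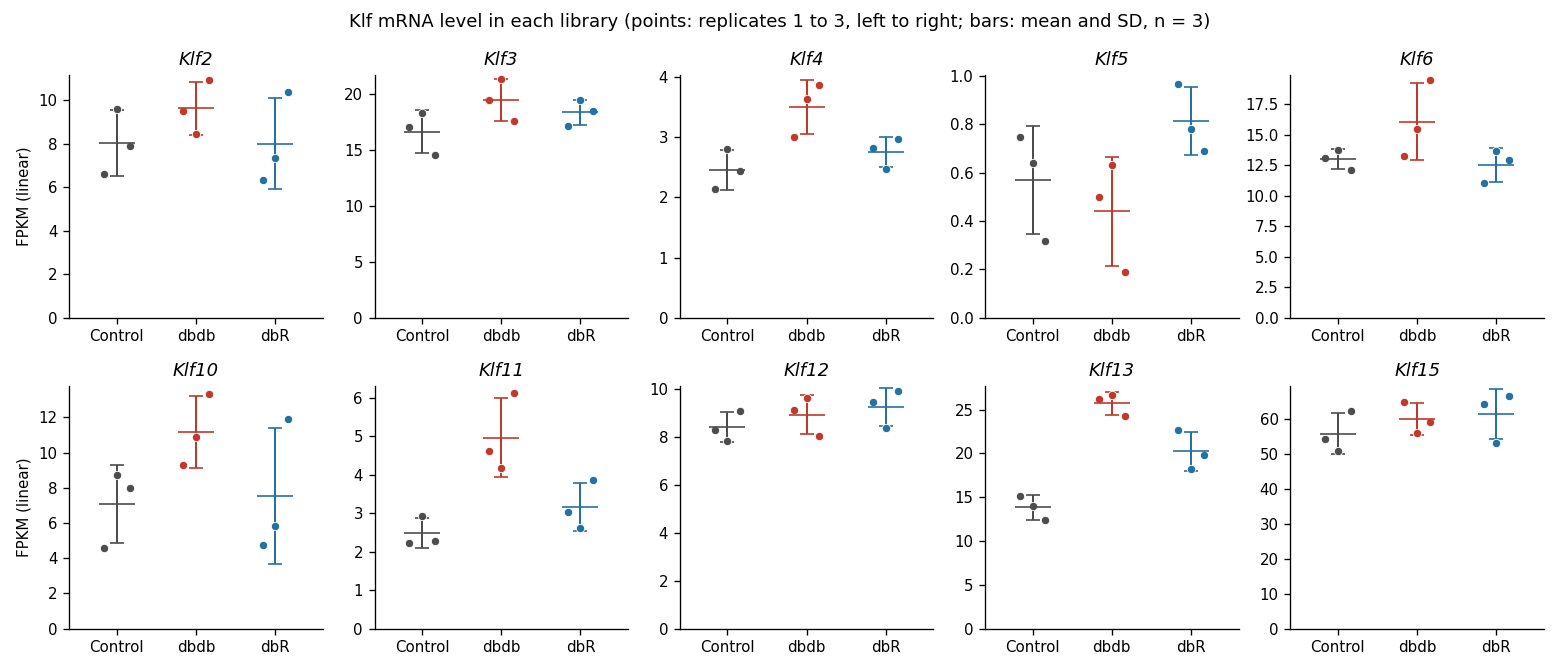
FPKM of each of the 10 Klf genes (vertical axes, linear, from 0) in the Control, dbdb and dbR groups, with 1 point per mouse and bars for the mean and SD of 3 mice. The dbdb points of Klf4, Klf10, Klf11 and Klf13 lie above all their Control points, while those of Klf12 and Klf15 overlap with both other groups.

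Klf13, a SIN3A-binding member, had the smallest adjusted p of the family. Its level was 15.2, 14.0 and 12.4 FPKM in Control replicates 1 to 3, 26.2, 26.7 and 24.3 FPKM in dbdb and 22.6, 18.2 and 19.8 FPKM in dbR. No library of one group reached the range of another, with Control lowest, dbR between and dbdb highest. Between dbdb and Control the log2 fold change was 0.89 (SE 0.10, adjusted p = 0.000193), a fold of 1.86 (95% confidence interval 1.60 to 2.15). Between dbR and Control it was 0.54 (SE 0.10, adjusted p = 0.00314), a fold of 1.46. Between dbR and dbdb it was -0.35 (SE 0.10, adjusted p = 0.109), which did not pass the threshold.

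The 3 Klf13 transcripts in the files did not contribute alike. The longest, ENSMUST00000063694 (6396 bases, 2 exons), held 81.5% of the gene's FPKM and by itself gave a log2 fold change of 0.79 between dbdb and Control (adjusted p = 0.00198 over 29362 transcripts) and of 0.44 between dbR and Control (adjusted p = 0.0270). The short transcript ENSMUST00000183817 was at 2.18, 2.27 and 0.191 FPKM in Control, 5.28, 4.05 and 3.84 FPKM in dbdb and 2.57, 2.51 and 2.81 FPKM in dbR. Its Control replicate 3 value stood far below the others, and it passed in no comparison (adjusted p = 0.131 between dbdb and Control). Short transcripts that share exons with a long one are hard to tell from it, so their FPKM is less certain than the gene's sum.

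**Figure D2:**
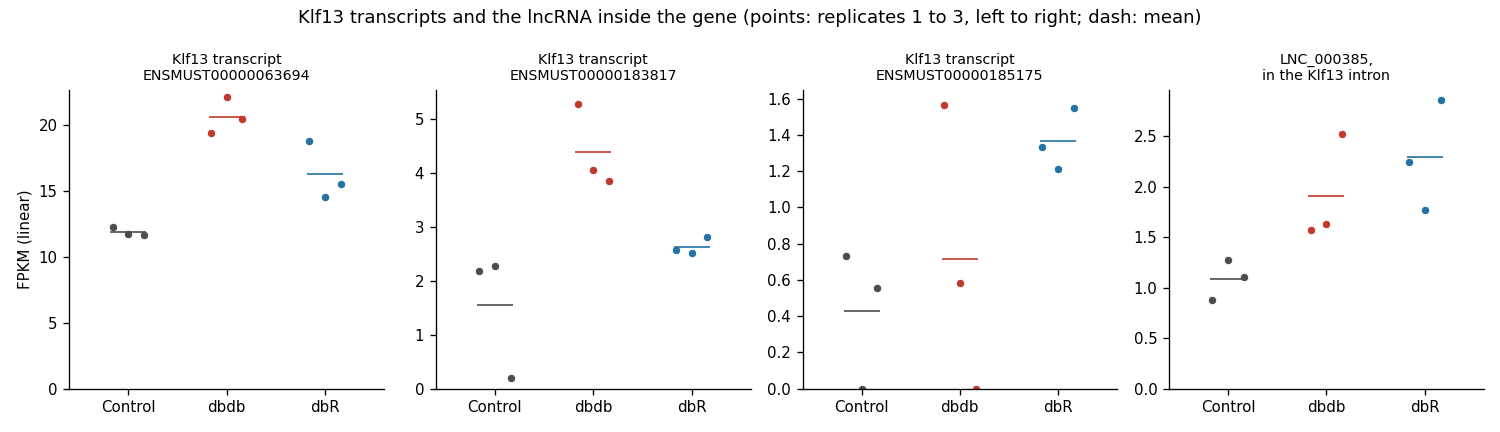
FPKM (vertical axes, linear, from 0) of the 3 Klf13 transcripts and of LNC_000385, a noncoding RNA inside the Klf13 gene, with 1 point per mouse and a dash for the group mean. The main transcript keeps its 3 groups apart, and the noncoding RNA is higher in every dbdb and dbR library than in every Control library.

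Klf11, the second SIN3A-binding member called, had the largest fold between dbdb and Control. Its level was 2.24, 2.92 and 2.27 FPKM in Control, 4.61, 4.18 and 6.12 FPKM in dbdb and 3.03, 2.63 and 3.85 FPKM in dbR. The dbdb libraries lay above all others, and the Control and dbR libraries overlapped. The log2 fold change between dbdb and Control was 0.97 (SE 0.18, adjusted p = 0.00369), a fold of 1.96 (95% confidence interval 1.48 to 2.58). Between dbR and dbdb it was -0.63 (SE 0.18, adjusted p = 0.119), and between dbR and Control 0.34 (SE 0.18, adjusted p = 0.201). A short transcript, ENSMUST00000139940 (380 bases), added 0.474 FPKM to dbR replicate 1 and 0.301 FPKM to dbR replicate 3 and was close to 0 in all other libraries.

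Klf10, the closest relative of Klf11 and the best known TGF-β-inducible member, was the most uneven of the SIN3A-binding members. It was at 4.57, 8.72 and 8.00 FPKM in Control, 9.28, 10.9 and 13.3 FPKM in dbdb and 4.76, 5.85 and 11.9 FPKM in dbR. Its dbdb libraries lay above all Control libraries, but dbR replicate 3 lay within the dbdb range. The log2 fold change was 0.69 between dbdb and Control (SE 0.33, adjusted p = 0.155) and -0.66 between dbR and dbdb (SE 0.33, adjusted p = 0.332), with 95% confidence intervals of -0.05 to 1.42 and of -1.40 to 0.07. Without Control replicate 1 the first was 0.40 (adjusted p = 0.414), and the second was -0.40 without dbR replicate 1 and -1.05 without dbR replicate 3 (adjusted p = 0.564 and 0.138). The residual SD of Klf10 on the log2 scale was 0.51, larger than that of 98.2% of the 10804 genes with a mean of 1 to 100 FPKM, whose median was 0.12.

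Among the activators, Klf4 was called and Klf2, Klf5 and Klf6 were not. Klf4, one of the pluripotency factors and a regulator of endothelial and podocyte genes, was at 2.13, 2.81 and 2.43 FPKM in Control, 3.01, 3.63 and 3.87 FPKM in dbdb and 2.83, 2.47 and 2.96 FPKM in dbR. Its dbdb libraries lay above all the others, while Control and dbR overlapped. The log2 fold change between dbdb and Control was 0.50 (SE 0.13, adjusted p = 0.0225), a fold of 1.41. Between dbR and dbdb it was -0.33 (SE 0.13, adjusted p = 0.241). This call was the least firm of the family: with only the main transcript, ENSMUST00000107619, the log2 fold change was 0.40 (adjusted p = 0.0728), and the call was also lost when Control replicate 1, Control replicate 3, dbdb replicate 2 or dbdb replicate 3 was left out (adjusted p = 0.0585 to 0.0738).

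Klf6, induced by tissue injury, was at 13.1, 13.8 and 12.1 FPKM in Control, 13.3, 15.5 and 19.5 FPKM in dbdb and 11.0, 13.7 and 12.9 FPKM in dbR. The dbdb group was spread over most of this range and overlapped with both others. Its log2 fold change was 0.29 between dbdb and Control (SE 0.13, adjusted p = 0.136) and -0.35 between dbR and dbdb (SE 0.13, adjusted p = 0.217). Without dbdb replicate 1, its lowest dbdb library, the first of these became 0.42 with an adjusted p of 0.0394, and without dbdb replicate 3, its highest, 0.14 with an adjusted p of 0.393. Without dbdb replicate 3 the difference between dbR and dbdb was -0.20.

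Klf2, which responds to blood flow in the endothelium, was at 6.599, 9.60 and 7.92 FPKM in Control, 9.49, 8.46 and 10.9 FPKM in dbdb and 6.31, 7.34 and 10.4 FPKM in dbR. All 3 groups overlapped, and its log2 fold changes lay between -0.29 and 0.27 with an SE of 0.19, so that the 95% confidence interval between dbdb and Control reached from -0.15 to 0.68. Klf5 had the lowest level, at 0.749, 0.639 and 0.319 FPKM in Control, 0.499, 0.632 and 0.190 FPKM in dbdb and 0.967, 0.781 and 0.692 FPKM in dbR. The dbR libraries lay above all dbdb libraries, but the log2 fold change of 0.85 had an SE of 0.36 (adjusted p = 0.263). It was 0.45 without dbdb replicate 3 and 0.34 with a pseudocount of 1 in place of 0.1. By its FPKM, length and the estimated depth, between about 17 and 98 fragments stood behind each of these Klf5 values, where the other members had from about 170 to 4300.

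Neither CtBP-binding member was called. Klf3 ranged from 14.6 to 18.3 FPKM in Control, from 17.5 to 21.4 FPKM in dbdb and from 17.1 to 19.4 FPKM in dbR, with a log2 fold change of 0.23 between dbdb and Control (SE 0.10, adjusted p = 0.122). Klf12 ranged from 7.86 to 9.11 FPKM in Control, from 8.03 to 9.64 FPKM in dbdb and from 8.38 to 9.92 FPKM in dbR. Both genes overlapped between all groups. The 95% confidence interval of the log2 fold change of Klf12 between dbdb and Control was -0.13 to 0.30.

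Klf15, which has a known part in podocyte differentiation and in amino acid use, was at 54.2, 50.7 and 62.1 FPKM in Control, 64.8, 55.9 and 59.2 FPKM in dbdb and 64.4, 53.2 and 66.6 FPKM in dbR. The 3 groups covered nearly the same range. Its log2 fold change was 0.11 between dbdb and Control (SE 0.10, adjusted p = 0.471, 95% confidence interval -0.12 to 0.34) and 0.03 between dbR and dbdb (SE 0.10, adjusted p = 0.913). The transcript ENSMUST00000032174 made up 94.5% of its FPKM.

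**Figure D3:**
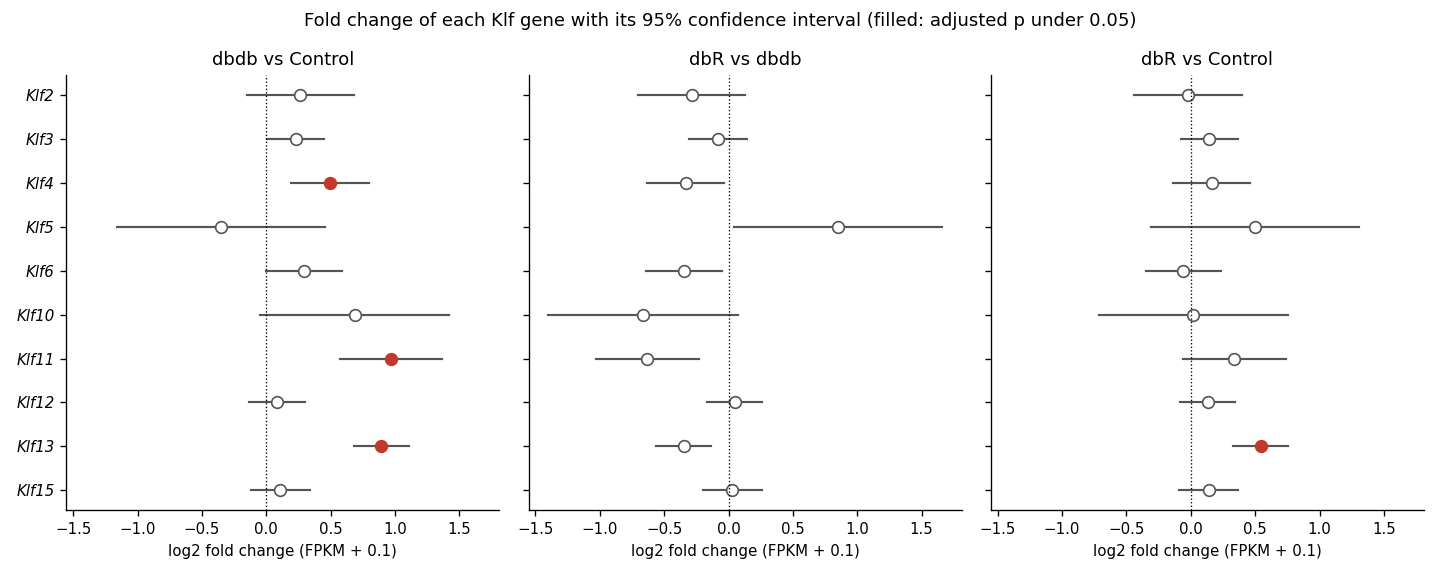
Log2 fold change of FPKM + 0.1 (horizontal axes) for each Klf gene in the comparisons dbdb against Control, dbR against dbdb and dbR against Control, with 95% confidence intervals and filled points where the adjusted p was under 0.05. Klf4, Klf11 and Klf13 are filled in the first panel, none in the second and Klf13 in the third.

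Set against all genes, the members called between dbdb and Control were 3 of 10, all higher, where 13.1% of the 14537 genes tested were called higher and 26.4% were called in either direction. All 3 dbdb libraries lay above all 3 Control libraries for 4 of 10 members (Klf4, Klf10, Klf11 and Klf13), and for 21.2% of all genes. The log2 fold change was positive in 9 of 10 members, with a median of 0.28, where the median over all genes was -0.0030.

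Between dbR and dbdb, 0 of 10 members were called by limma, where 0.743% of all genes were called. At an unadjusted p under 0.05 there were 5 members, of which Klf4, Klf6, Klf11 and Klf13 were lower in dbR (8.05% of all genes) and Klf5 was higher (9.43% of all genes). All 3 dbR libraries lay below all 3 dbdb libraries for 3 members (Klf4, Klf11 and Klf13), and for 11.9% of all genes. They lay above them for Klf5, and for 10.7% of all genes. The median log2 fold change of the members was -0.31, and that of all genes -0.0022. The dbdb libraries enter both this comparison and the one with Control.

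Between dbR and Control, 1 of 10 members was called, Klf13, where 12.3% of all genes were called higher and 24.1% in either direction. Klf13 was also the only member with no overlap there, which 20.8% of all genes showed with the dbR libraries above. The median log2 fold change was 0.14 for the members and -0.0014 for all genes.

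The library with the highest value differed between members and groups. In Control, replicate 2 held the highest value of 6 members (Klf2, Klf3, Klf4, Klf6, Klf10 and Klf11). In dbdb, replicate 3 held the highest value of 5 (Klf2, Klf4, Klf6, Klf10 and Klf11) and replicate 2 of 4, and in dbR replicate 3 held the highest value of 6 (Klf2, Klf4, Klf10, Klf11, Klf12 and Klf15). Klf10 in dbR replicate 3 was 2.51 times its value in dbR replicate 1. Same-numbered replicates of different groups are different mice, and how often a library holds the highest value over all genes was not tested.

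**Figure D4:**
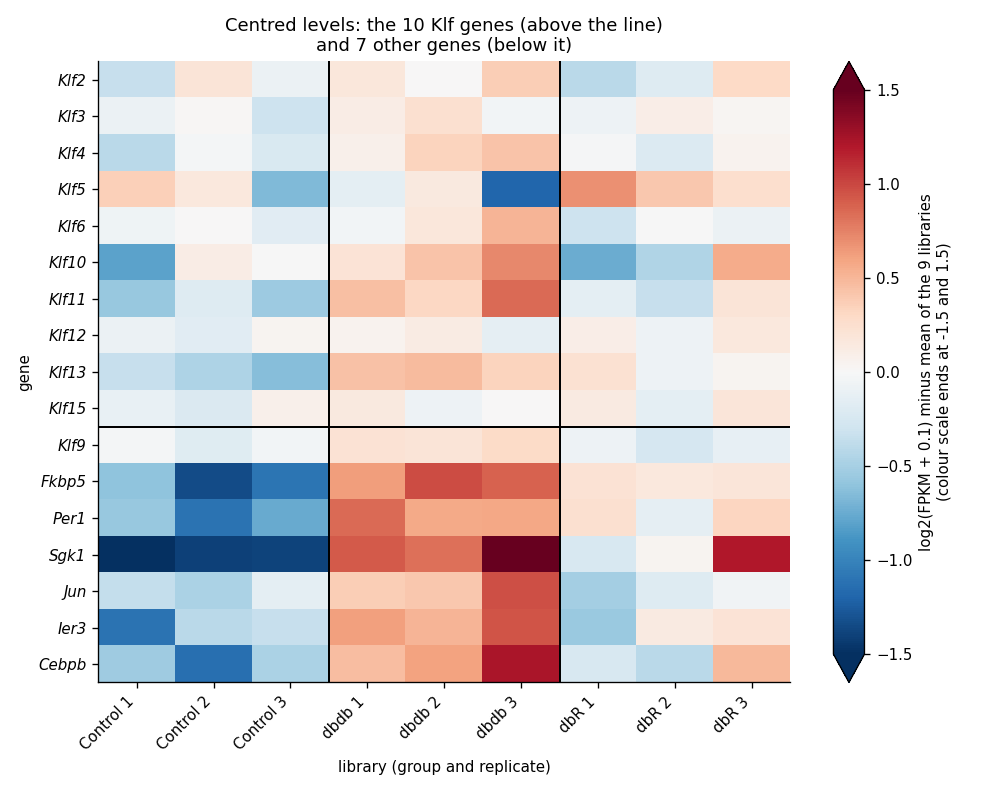
Log2(FPKM + 0.1) of the 10 Klf genes and of Klf9, Fkbp5, Per1, Sgk1, Jun, Ier3 and Cebpb (rows) in each of the 9 libraries (columns), centred on the mean of the 9, with red above and blue below that mean. Klf10 and Klf11 are reddest in dbdb replicate 3, and dbR replicate 3 stands above the other dbR libraries for Klf2 and Klf10. Klf9 and the genes named after it were picked from the lists, and each has its highest group mean in dbdb. Sgk1 is named only here. Listed genes that were lower in dbdb than in Control, such as Wwp1 and Nr1d1, are not shown.

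By profile over the 9 libraries, the genes most like each called member were found among 11614 genes with a mean of at least 1 FPKM, as those with the smallest root mean square difference of centred log2 values. Klf13 was followed most closely by Glud1 (0.063), which encodes mitochondrial glutamate dehydrogenase, by the kinase gene Rps6ka1 (0.064) and by the death receptor gene Tnfrsf21 (0.070). Glud1 averaged 163 FPKM in Control, 301 FPKM in dbdb and 232 FPKM in dbR. Nearest to Klf11 were the cyclin D1 gene Ccnd1 (0.14), the galectin gene Lgals4 (0.16) and the mitochondrial glutamate carrier gene Slc25a22 (0.16). For Klf4 they were the cytochrome P450 gene Cyp2u1 (0.080), Paxbp1 (0.095) and Srcin1 (0.099).

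Of 16 further genes of the KLF and SP family 10 were tested, and 3 of these were higher in dbdb than in Control (Klf9, Sp2 and Sp4) and none lower, with a median log2 fold change of 0.19, where 13.1% of all genes were called higher and 26.4% in either direction. Klf9, itself a glucocorticoid-induced SIN3A-binding member, was at 62.3, 55.7 and 61.8 FPKM in Control, 73.8, 72.4 and 77.7 FPKM in dbdb and 60.0, 53.3 and 58.3 FPKM in dbR. Its dbdb libraries lay above all the others, with log2 fold changes of 0.32 against Control (SE 0.07, adjusted p = 0.00682) and of -0.38 between dbR and dbdb (SE 0.07, adjusted p = 0.0389). It was the only gene of this list called between dbR and dbdb, where 0.179% of all genes were called lower. Over the 10 lists of KLF-related genes, cell markers apart, 5 genes were called between dbR and dbdb (Klf9, Mef2c, Cdkn1a, Per2 and Fabp4), and with any 1 of the dbR libraries left out none was. Between dbR and Control 3 genes were higher, Sp4, Sp2 and Klf1, the erythroid founder of the family, where 12.3% of all genes were. Sp4 ranged from 2.32 to 2.69 FPKM in Control, from 3.16 to 3.77 FPKM in dbdb and from 3.47 to 4.05 FPKM in dbR, and Sp2 from 3.05 to 4.10 FPKM, from 4.88 to 5.90 FPKM and from 4.26 to 4.96 FPKM, so that for both genes every db/db library lay above every Control library. Klf14, Klf17, Sp8 and Sp9 were listed at 0 in all 9 libraries.

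Of 14 genes whose proteins bind or break down KLFs, 2 were called higher in dbdb than in Control and 4 lower, where 13.1% of all genes were called higher and 13.4% lower. Wwp1, a ubiquitin ligase that acts on KLF2 and KLF5, fell from 76.5 to 80.9 FPKM in Control to 48.6 to 51.9 FPKM in dbdb (log2 fold change -0.65, SE 0.07, adjusted p = 0.000153), and it was as low in dbR, at 48.95 to 58.1 FPKM. Smurf2, another ligase, changed by -0.44 (adjusted p = 0.00118) and Kat2b, an acetyltransferase, by -0.30 (adjusted p = 0.0152). Ctbp2, the corepressor of KLF3 and KLF12, rose by 0.44 (adjusted p = 0.00433). Hdac2 (-0.21) and Smurf1 (0.31), named because they complete the count, passed as well. None of the 14 was called between dbR and dbdb, and between dbR and Control 1 was higher (Ctbp2) and 3 were lower (Wwp1, Smurf2 and Kat2b), where 11.8% of all genes were called lower.

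Of the ERK5-MEF2 route, by which blood flow induces Klf2 and Klf4, 2 of 6 genes were called between dbdb and Control, where 26.4% of all genes were called in either direction. Mef2c was lower (6.09, 7.50 and 6.15 FPKM in Control, 3.98, 5.52 and 4.58 FPKM in dbdb, adjusted p = 0.0170) and Mef2d was higher (log2 fold change 0.37, adjusted p = 0.00968). Mef2c was also the 1 gene of the list called between dbR and dbdb, higher in dbR at 7.67 to 8.19 FPKM (adjusted p = 0.0321), where 0.564% of all genes were called higher. None of the 6 was called between dbR and Control.

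Among the listed endothelial targets of KLF2 and KLF4, 3 of 11 tested were called between dbdb and Control. That was near the 26.4% of all genes called in either direction. Of the 3, 1 was higher in dbdb (S1pr1) and 2 were lower (Ace and Ccl2), and the median log2 fold change of the 11 was -0.03. The list holds activated genes as well as Edn1, which KLF2 represses, so the sign of that median has no single reading. Ace, the angiotensin-converting enzyme gene, which the proximal tubule also expresses, fell from 42.3 to 48.99 FPKM in Control to 10.04 to 11.4 FPKM in dbdb and lay at 9.35 to 13.7 FPKM in dbR (log2 fold changes of -2.12 and -2.03 against Control, adjusted p = 9.57e-06 and 1.01e-05). S1pr1, a sphingosine phosphate receptor, rose by 0.45 in dbdb and by 0.54 in dbR (adjusted p = 0.0208 and 0.00929). Edn1, the endothelin gene that KLF2 represses, was called only between dbR and Control (0.73, adjusted p = 0.0153), as was the prostaglandin synthase gene Ptgds (-0.65, adjusted p = 0.0182). No gene of this list was called between dbR and dbdb. Markers of the endothelium were called lower in dbdb than in Control in 4 of 9 (Pecam1, Cdh5, Kdr and Emcn) and higher in none. Over all genes 13.4% were called lower. The means of Flt1, Ehd3 and Plvap were higher in dbdb (16.9, 9.485 and 45.9 FPKM) than in Control (16.0, 8.67 and 40.9 FPKM), without a call. The summed level of the 9 markers was 179 to 199 FPKM in Control, 152 to 169 FPKM in dbdb and 198 to 219 FPKM in dbR. Emcn and Kdr were called higher in dbR than in dbdb (adjusted p = 0.0204 and 0.0309). Fewer cells of a type and less RNA per cell cannot be told apart in whole cortex, and the part of the endothelial share in the levels of Klf2 and Klf4 was not tested.

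The TGF-β list, which holds inputs and readouts of the route that induces Klf10 and Klf11, had 12 genes tested. Between dbdb and Control 3 of the 12 were called, near the 26.4% of all genes, Ctgf being higher and Tgfb1 and Tgfbr2 lower, and the median log2 fold change of the list was -0.13. Ctgf, the connective tissue growth factor gene, was at 18.7, 22.4 and 23.7 FPKM in Control, 45.6, 31.1 and 51.8 FPKM in dbdb and 29.9, 30.6 and 28.6 FPKM in dbR (log2 fold change 0.96 between dbdb and Control, SE 0.16, adjusted p = 0.00230). All dbdb libraries lay above all dbR libraries, but that difference of -0.50 did not pass (adjusted p = 0.164). Tgfb1 fell by 0.51 (adjusted p = 0.00501) and Tgfbr2 by 0.30 (adjusted p = 0.00267) between dbdb and Control. Tgfbr2, a receptor of TGF-β, was also lower in dbR than in Control (-0.35, adjusted p = 0.00116).

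Most metabolic genes that KLF15 is known to activate were called higher in both db/db groups, and Klf15 itself was not called. Of 11 tested, 9 were higher in dbdb than in Control and none lower, with a median log2 fold change of 0.86, and 9 were higher in dbR than in Control with a median of 0.59, where 13.1% and 12.3% of all genes were called higher. Gpt2 and Aass were called in neither, and the mean of Aass was 251 FPKM in Control, 223 FPKM in dbdb and 245 FPKM in dbR. Pck1, of gluconeogenesis, was at 630 to 728 FPKM in Control, 1371 to 2236 FPKM in dbdb and 1704 to 1842 FPKM in dbR (log2 fold changes of 1.41 and 1.42 against Control, adjusted p = 0.000207 and 0.000230). Oat, of ornithine metabolism, rose by 0.86 and 1.15, Prodh2, of hydroxyproline breakdown, by 1.11 and 1.22, and Gpt, an alanine aminotransferase gene, by 1.11 and 1.24 (all adjusted p of 0.000761 or less). None of the 11 was called between dbR and dbdb, where the median was -0.02.

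Genes listed as responsive to glucocorticoids, hormones that also induce Klf9 and Klf15, were mostly called higher against Control. Of 12 tested, 10 were higher in dbdb than in Control and 1 was lower, with a median log2 fold change of 1.48, where 13.1% of all genes were called higher and 13.4% lower. Fkbp5 was at 24.6, 14.7 and 17.4 FPKM in Control, 57.6, 73.9 and 69.1 FPKM in dbdb and 43.5, 41.7 and 42.5 FPKM in dbR, so that dbR lay between the other groups without overlap. Its log2 fold change was 1.84 between dbdb and Control (SE 0.16, adjusted p = 5.90e-05) and -0.64 between dbR and dbdb (SE 0.16, adjusted p = 0.0873). Zbtb16 rose by 2.78, Mt1 by 1.47 and Per1 by 1.48 between dbdb and Control (adjusted p = 0.000123, 5.84e-05 and 0.000163). The gene that was lower was the glucocorticoid receptor gene Nr3c1 (-0.39, adjusted p = 0.00452), named because it stood alone. Between dbR and dbdb 1 gene was called, Cdkn1a, where 0.179% of all genes were called lower. Cdkn1a was at 3.46 to 6.14 FPKM in dbdb and 1.82 to 2.04 FPKM in dbR (-1.24, adjusted p = 0.0295). Between dbR and Control 9 were higher and none lower, where 12.3% of all genes were called higher.

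Core clock genes, of which Klf10 and Klf15 are known outputs, were called in both directions. Of 15 tested, 5 were higher in dbdb than in Control (Per1, Per2, Cry1, Cry2 and Hlf) and 3 were lower (Nr1d1, Nr1d2 and Dbp), with a median log2 fold change of 0.19, and the counts between dbR and Control were 5 and 3 as well. Of all genes 13.1% were called higher and 13.4% lower in the first comparison, and 12.3% and 11.8% in the other. Per2 was at 6.55 to 7.79 FPKM in Control, 15.8 to 17.3 FPKM in dbdb and 11.4 to 12.3 FPKM in dbR, with log2 fold changes of 1.203 between dbdb and Control (adjusted p = 1.22e-05) and of -0.49 between dbR and dbdb (adjusted p = 0.0282). Cry1 rose by 2.24 and Hlf by 0.54 between dbdb and Control (adjusted p = 1.70e-05 and 0.000211). The hour at which each mouse was killed was not given in the sources used here.

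Immediate-early genes, with which Klf2, Klf4, Klf6 and Klf10 share a fast response to stimuli, had 8 of 16 tested higher in dbdb than in Control and 1 lower, with a median log2 fold change of 0.49, where 13.1% of all genes were called higher and 13.4% lower. Jun was at 9.02, 8.29 and 10.4 FPKM in Control, 15.1, 15.3 and 22.8 FPKM in dbdb and 8.12, 10.1 and 11.2 FPKM in dbR (0.91 between dbdb and Control, adjusted p = 0.00388, and -0.84 between dbR and dbdb, adjusted p = 0.0554). The dbdb libraries lay above all the others. Ier3 rose by 1.31, Fosl2 by 0.71 and Btg2 by 0.86 between dbdb and Control (adjusted p = 0.00348, 0.00200 and 0.00291). None of the 16 was called between dbR and dbdb. Against Control, 3 were higher in dbR, where 12.3% of all genes were called higher. The classic members Fos and Egr1 were not called in any comparison, at 0.196 to 1.09 FPKM and 1.001 to 3.39 FPKM over the 9 libraries, and were named after their values were seen.

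Of the epithelial and adipogenic genes tied to KLF3 and KLF5, 9 were tested, and 3 were higher in dbdb than in Control and 1 was lower, with a median log2 fold change of 0.15, where 13.1% of all genes were called higher and 13.4% lower. Cebpb, which acts with KLF5 in fat cell formation, rose by 1.48 (adjusted p = 0.00335), the galectin gene Lgals3 by 0.82 (adjusted p = 0.00201) and the keratin gene Krt18 by 0.56 (adjusted p = 0.0114). Fabp4, a fatty acid binding protein gene that PPARγ activates, was at 30.6, 36.6 and 41.6 FPKM in Control, 32.9, 21.9 and 22.8 FPKM in dbdb and 45.8, 45.8 and 43.1 FPKM in dbR. It was lower in dbdb than in Control (-0.50, adjusted p = 0.0355) and higher in dbR than in dbdb (0.82, adjusted p = 0.0450), and was the 1 gene of this list called there. Between dbR and Control 2 were higher, Lgals3 and Krt18, where 12.3% of all genes were.

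**Figure D5:**
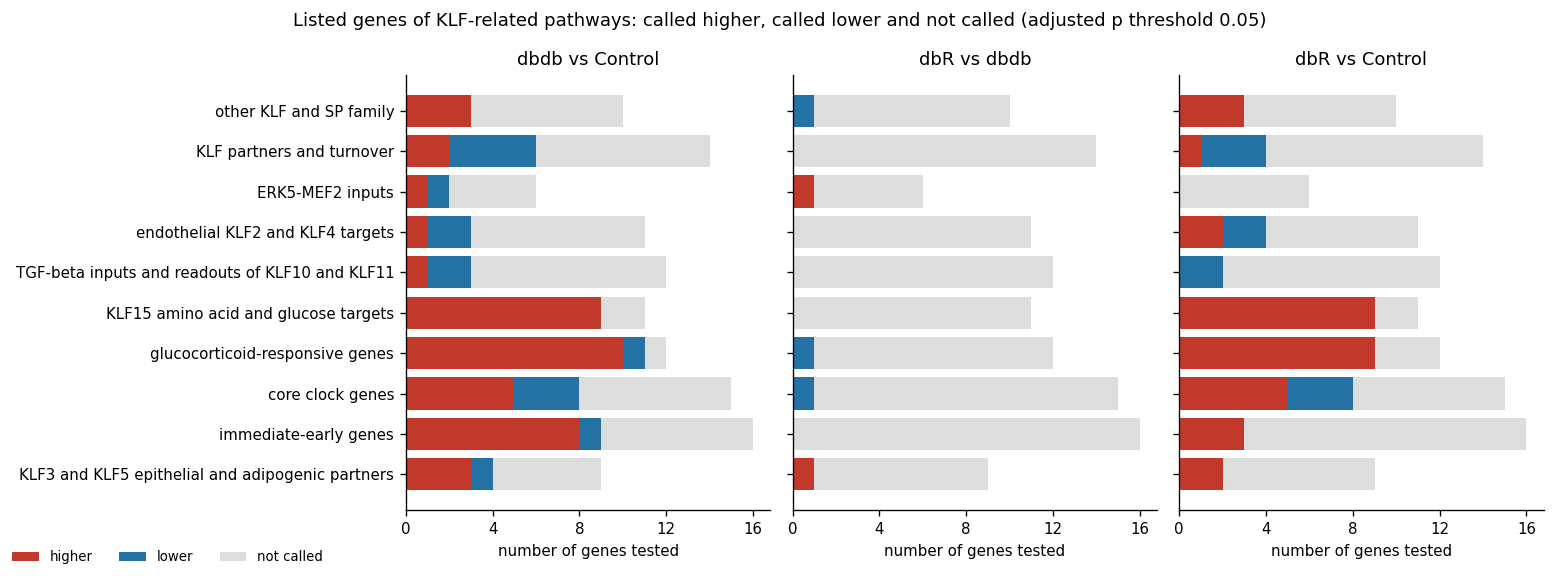
Number of genes tested in each of the 10 KLF-related lists (horizontal axes) that were called higher (red), called lower (blue) or not called (grey) in each comparison at an adjusted p under 0.05. The lists of KLF15 targets and glucocorticoid-responsive genes are mostly red against Control in both db/db groups, and almost all bars are grey between dbR and dbdb.

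Lepr, the gene with the db mutation, was at 1.05 to 1.23 FPKM in Control, 0.304 to 0.652 FPKM in dbdb and 0.335 to 0.512 FPKM in dbR, with every db/db library below every Control library. The proximal tubule markers, led by Slc27a2 and Slc34a1 and summing to 3611 to 4454 FPKM over the 9 libraries, were abundant in all, as the label of renal cortex requires. Markers of several other cell types, though not of all, were called between groups. Between dbdb and Control, collecting duct markers were higher in 6 of 8 (summed 139 to 159 against 207 to 300 FPKM), thick ascending limb and distal tubule markers in 3 of 5, and podocyte markers in 3 of 6, with none lower. Macrophage markers were lower in 4 of 6 (summed 40.8 to 48.4 against 20.2 to 35.2 FPKM). Proximal tubule markers were higher in 2 of 7 and lower in 1. Over all genes, 13.1% were called higher and 13.4% lower between dbdb and Control. No fibroblast or smooth muscle marker was called between dbdb and Control. Between dbR and Control, where Klf13 was called, markers were higher in 7 of 8 for the collecting duct, 4 of 5 for the thick ascending limb and distal tubule, 3 of 6 for the podocyte, 3 of 9 for the endothelium and 2 of 7 for fibroblasts and smooth muscle, with none lower in these lists. Macrophage markers were lower in 1 of 6 there, and proximal tubule markers were higher in 1 of 7 and lower in 1. The shares of all genes between dbR and Control were 12.3% called higher and 11.8% called lower. Besides Emcn and Kdr, the markers called between dbR and dbdb were Pdgfrb of fibroblasts and Fxyd4 of the collecting duct, both higher in dbR. In that comparison 0.564% of all genes were called higher. Of the lymphocyte markers with a mean of at least 0.1 FPKM, 1 of 3 (Cd79a) was lower in dbdb than in Control. Of such adipocyte markers, 1 of 3 (Cfd) was lower in dbdb and in dbR than in Control. These 2 lists summed to at most 2.31 and 3.01 FPKM in any library. Of 6 erythroid markers only Slc4a1 was called, higher in dbdb and in dbR than in Control, but it is also a collecting duct gene. The erythroid sum of Control replicate 1 stood apart at 108 FPKM against 10.7 to 26.3 FPKM elsewhere. Without Control replicate 1, Klf13 and Klf11 were called between dbdb and Control and Klf4 was not. The part of these cell types in the Klf levels was not tested.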

How the data were processed

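Total RNA of each mouse was depleted of ribosomal RNA, made into strand-specific libraries and sequenced as paired reads. Per the submitters' processing notes and the study's methods, the authors aligned reads to GRCm38.p2 with TopHat2 2.0.9 and computed FPKM per transcript with Cufflinks 2.1.1, and the deposited values are FPKM with no read counts. Whether strand was used in counting is not given in the sources used here. FPKM was summed per gene over 50660 transcripts of 21950 genes. From steps of single fragments in low values, depth was estimated at 24.7 to 30.4 M fragments per library, with relative depths of 0.913 to 1.14; replicates are separate mice.

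Genes with a mean of at least 0.1 FPKM over the 9 libraries (14537) were tested as log2(FPKM + 0.1) with limma 3.58.1 (trend, R 4.3.3) in 1 fit of 3 groups, two-sided, with Benjamini-Hochberg adjustment over all genes. Called means an adjusted p under 0.05. Fold changes are on that scale, which understates the change of low genes, and SE is of the log2 fold change. The 3 comparisons share libraries.

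The Klf members and all lists were chosen with earlier results of these data known. All members are named in every comparison. From each list of KLF-related genes the text names up to 4 called genes with the smallest adjusted p. It also names the 3 genes most like each called member, and Lepr. The rule was not applied to the cell marker lists, which are given mainly as counts, with some markers named. Lists are described by counts, without set tests. A gene that this rule names is not reported here. Other genes are named to complete counts of 5 or fewer, after their values were seen. For 3 listed symbols the files use another or were not matched: Plpp3 was read as Ppap2b and Ccn2 as Ctgf, and Cebpd was not analysed here. Promoter windows came from RefSeq (GRCm38.p6) and gene positions from GENCODE (GRCm38). Neighbouring noncoding RNAs were sought within 100 kb of each member. Alternatives were other pseudocounts, filters and scalings, the 6 libraries of a comparison alone, no trend, only the main transcript, noncoding genes included, the replicate number as a block, and each library left out.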

Additional observations from a re-analysis of the deposited data

Results flagged for a closer look

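LNC_000385, an unannotated noncoding RNA that lies outside the mRNA tables used above, had a higher level in every db/db library than in every Control library. It is a transcript of 1583 bases and 2 exons on chr7:63915961-63917722 (GRCm38, minus strand), which is within the single intron of Klf13 and on the strand of that gene. Its level was 0.879, 1.27 and 1.11 FPKM in Control (mean 1.09), 1.57, 1.64 and 2.52 FPKM in dbdb (mean 1.91) and 2.25, 1.77 and 2.855 FPKM in dbR (mean 2.29). The dbdb and dbR ranges overlapped. With mRNA and noncoding genes adjusted together by limma, its log2 fold change was 0.74 between dbdb and Control (adjusted p = 0.0409), 1.0 between dbR and Control (adjusted p = 0.0126) and 0.26 between dbR and dbdb (adjusted p = 0.620). For Klf13 itself every dbR library lay below every dbdb library, but that difference did not pass in limma either (adjusted p = 0.109). Whether the reads of LNC_000385 come from a separate RNA or from unspliced Klf13 RNA was not tested. LNC_000385 was 1 of 6 noncoding genes found within 100 kb of the Klf members, and none of the other 5 was called in any comparison.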

How the results depend on the processing

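Of 21 alternatives, all kept the calls of Klf13 and Klf11 between dbdb and Control (log2 fold changes of 0.79 to 1.05 and of 0.77 to 1.12) and of Klf13 between dbR and Control (0.44 to 0.64), and none called a member between dbR and dbdb. Klf4 between dbdb and Control was called under 14 of the 21; it was lost with no filter on low values (adjusted p = 0.0598), quantile normalization (0.0535), the main transcript alone (0.0728) and 4 of the single-library omissions. With mitochondrial genes left out and libraries scaled to the same sum, 5 members were called between dbdb and Control, Klf3 (adjusted p = 0.0224) and Klf6 (0.0381) being added, but there the median of all genes itself rose by 0.15 on the log2 scale and the share of calls that were higher went from 49.4% to 78.3% (from 51.1% to 70.5% between dbR and Control, and from 75.9% to 48.6% between dbR and dbdb). Scaling to the 75th percentile moved that share to 62.3% between dbR and Control. Leaving out single libraries gave 2 to 4 called members between dbdb and Control, 0 between dbR and dbdb and 1 between dbR and Control. Replicate numbers did not pair the mice (correlations of same-numbered deviations from -0.175 to 0.0615). With the replicate block, 4 members were called between dbdb and Control, Klf10 being added (adjusted p = 0.0430).
Of 115 list genes, 5 were called between dbR and dbdb, against 0 with no filter, the 6 libraries alone or no trend, and 2 with the main transcript or the replicate block, and 0 to 5 with single libraries left out. Over all genes that comparison gave 108 calls, against 17 with no filter, 22 with 6 libraries, 18 without trend, 23 with the replicate block, 49 with the main transcript, 66 with noncoding genes, 166 with a mean of at least 1 FPKM, 203 at the 75th percentile and 234 with quantile normalization; without dbR replicate 1, 2 or 3 it gave 70, 2 or 10, without dbdb replicate 1 or 2 it gave 36 or 31, and without Control replicate 2 it gave 72. The cause was not tested. Each test rests on 3 mice a group, and the Klf5 values rest on the fewest fragments.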
